A study of Rattus norvegicus with 6 samples.

Results

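The genes that copy DNA and the genes that divide it were compared between bone cells caught on different protein coatings. The set held every gene with a single-symbol row on the array whose symbol was an Mcm, Orc, Gins or Rfc number, began with Cenp, Aurk, Bub1 or Ncap, or was Cdc6, Cdc20, Cdc45, Rrm1, Rrm2, Top2a, Pcna, Mki67, Cdk1, Ccna2, Ccnb1, Ccnb2 or Ccne1. It comprised 53 of the 14506 genes with a symbol of their own, 27 for replication and 26 for mitosis. Another 18 symbols of this form, among them Mcm3, Mcm4, Mki67, Cenpe and Cenpf, were not named by the annotation used and were not analysed here.

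Long-bone cells of newborn rats (Sprague Dawley, 2 to 5 days old) were left to attach to plates coated with mouse prothrombin (PT), the precursor of thrombin, or bovine milk osteopontin (OPN), an acidic protein of bone matrix. RNA was measured on Affymetrix Rat Gene 1.0 ST arrays, 3 for the PT coating (numbered 1, 2 and 4) and 3 for the OPN coating (numbered 2, 3 and 4). No genotype or drug treatment is labelled, both groups share strain and age, and no array of cells before attachment was used. The labels do not say that arrays came from separate litters or preparations, so the p-values rest on a spread between samples that may be technical.

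Each value is a linear PLIER signal, a summary of the probes of 1 probe set, and array medians lay between 207.8 and 231.4 units. Differences are OPN minus PT on the scale of log2(signal + 16), which understates changes of dim rows. A gene is said to have risen or fallen only where limma's test, adjusted over all 29215 rows by the Benjamini-Hochberg method, gave an adjusted p under 0.05. The number of arrays limits the precision, and detection calls were not used here. Marker genes of osteoclasts and macrophages were measured on both coatings. Acp5, the tartrate-resistant acid phosphatase, had 4782 ± 283 units on OPN and 856 ± 41.3 on PT, and the macrophage receptor gene Adgre1 had 347 ± 3.40 and 527 ± 28.6 (SD, n = 3 each). Not all markers of these cells went the same way. In the lists used below, 3 of 14 macrophage genes lay above 0 and 1 of 8 osteoclast genes lay below 0. No cell counts were used here, and in bulk RNA fewer cells of a type and less RNA per cell cannot be told apart.

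DNA replication starts at origins marked by the origin recognition complex (ORC). Cdc6 helps ORC load the ring of MCM proteins, and Cdc45 and GINS turn that ring into the active helicase. At mitosis, cyclin B with Cdk1 drives entry, condensins and topoisomerase II compact the chromosomes, and centromere (CENP) proteins, Aurora kinases and the Bub checkpoint attach and part them. In bone marrow most dividing cells are precursors of blood cells, whereas the osteoclast is a post-mitotic cell formed by fusion. The replication genes are known targets of E2F factors, and many mitotic genes are known to carry a cell cycle homology region (CHR) and CCAAT boxes in their promoters.

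The stretches just upstream of 8 of the genes are shown for these letters. Mcm6, Mcm7 and Mcm5 stand for the helicase, Cdc20, Ccnb2 and Top2a for mitosis, and Ccne1 and Cenpu were 2 of the 3 genes that passed the test. Each line is 150 bases, 5′ to 3′ on the gene's strand, ending at the base before the start site, from RefSeq on build GRCr8. Capitals mark an E2F-type match (the letters TTGGCGC, or TTCCCGC, or TTCGCGC, or else TTGCCGC), a CHR match (either TTTGAA or else TTCGAA) or a CCAAT match, on either strand and wholly inside the line.
Mcm6 (chr13:42404353-42404502, minus strand): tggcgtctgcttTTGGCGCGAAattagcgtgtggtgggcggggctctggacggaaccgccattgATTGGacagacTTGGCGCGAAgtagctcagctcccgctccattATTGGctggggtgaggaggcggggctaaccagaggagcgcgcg
Mcm7 (chr12:22163179-22163328, minus strand): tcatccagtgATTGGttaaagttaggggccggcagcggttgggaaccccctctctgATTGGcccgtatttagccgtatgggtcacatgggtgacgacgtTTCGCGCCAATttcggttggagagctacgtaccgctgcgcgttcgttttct
Mcm5 (chr19:13488663-13488812, plus strand): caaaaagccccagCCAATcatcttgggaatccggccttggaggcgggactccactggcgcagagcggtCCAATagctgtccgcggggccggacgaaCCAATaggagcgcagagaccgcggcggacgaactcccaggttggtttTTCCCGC
Cdc20 (chr5:137255800-137255949, minus strand): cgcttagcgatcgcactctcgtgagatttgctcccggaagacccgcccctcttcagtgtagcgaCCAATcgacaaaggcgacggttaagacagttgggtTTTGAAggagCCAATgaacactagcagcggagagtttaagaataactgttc
Ccnb2 (chr8:79981659-79981808, minus strand): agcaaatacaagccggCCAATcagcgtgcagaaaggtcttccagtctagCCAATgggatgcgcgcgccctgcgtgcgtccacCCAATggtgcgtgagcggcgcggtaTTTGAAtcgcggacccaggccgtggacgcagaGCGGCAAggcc
Top2a (chr10:84473094-84473243, minus strand): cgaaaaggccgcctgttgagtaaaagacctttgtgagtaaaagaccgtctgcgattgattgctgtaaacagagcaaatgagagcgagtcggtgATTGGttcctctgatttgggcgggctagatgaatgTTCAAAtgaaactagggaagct
Ccne1 (chr1:99927910-99928059, minus strand): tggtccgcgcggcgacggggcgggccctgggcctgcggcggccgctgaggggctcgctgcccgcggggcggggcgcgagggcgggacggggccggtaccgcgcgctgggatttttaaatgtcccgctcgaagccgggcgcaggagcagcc
Cenpu (chr16:52471663-52471812, minus strand): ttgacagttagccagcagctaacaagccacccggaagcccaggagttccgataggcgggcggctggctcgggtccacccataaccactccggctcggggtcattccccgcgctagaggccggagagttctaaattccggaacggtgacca

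The RefSeq promoter table (250 bases before to 50 after the start) held 44 of the 53 genes, and Cdc6 and Rrm2 were among the 9 it did not hold. E2F-type letters occurred in 15 of 22 replication promoters (68.2%) and 5 of 22 mitosis promoters (22.7%), against 13.8% of 12519 promoters of measured genes and 9.52% of all 33469 promoters. CHR letters ran the other way, with 12 of 22 mitosis promoters (54.5%) and 5 of 22 replication promoters (22.7%), against 16.7% of measured genes and 19.7% of all. CCAAT was found in 14 replication and 11 mitosis promoters, against 38.2% of measured genes and 37.5% of all. The mean GC content was 59.9% in the replication promoters, 56.0% in the mitosis promoters and 57.1% in those of measured genes. E2F-type forms overlap each other in Mcm6 and Mcm7, an E2F-type match overlaps a CCAAT match in Mcm7, and TTCGAA reads the same on both strands. The differences between coatings were set beside these letters without a test. The median difference was -0.14 in replication promoters with E2F-type letters and -0.11 in those without, and -0.18 in mitosis promoters with CHR letters and -0.16 in those without. The 5 replication promoters with CHR letters had a median of -0.18 and the other 17 of -0.09. The 5 mitosis promoters with E2F-type letters had a median of -0.21 and the other 17 of -0.18. With and without CCAAT the medians were -0.13 and -0.10 in replication promoters, and -0.18 and -0.18 in mitosis promoters. Ccne1 and Cenpu, which fell on OPN, had no match to any of these letters in the 300-base window.

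Signals of these genes lay slightly lower on OPN, in replication and mitosis alike. The difference was below 0 in 46 of the 53 genes, with a median of -0.15, where all rows had a median of 0.03 and 41.5% of rows lay below 0. Cdc6, Ccne1 and Cenpu fell and 0 genes rose, so 5.66% of the set was called lower. In the same test 5.82% of all rows were called, 0.77% lower and 5.05% higher. At an unadjusted p under 0.05, 22 of the 53 genes were lower and 0 higher, against 4.82% and 12.8% of all rows. The 3 OPN arrays lay below the 3 PT arrays in 28 of the 53 genes, against 7.4% of all rows. They lay above in 1 of them, Orc5, against 16.3% of all rows. Bright rows were lower on OPN more often than dim ones. Among all rows with a mean signal of at least 601 units, the median of the set, 50.7% lay below 0. Of these rows 17.1% had OPN wholly below PT, 2.48% were called lower and 13.2% were lower at unadjusted p under 0.05 in limma. In the 27 genes of the set at or above that signal, the shares were 96.3%, 70.4%, 7.41% and 63%, in the same order.

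Which of these small differences were called depended on how the arrays were scaled and on single arrays. With equal array medians 9 of the 53 genes were called lower, and with quantile normalisation 13, where 1.89% and 2.55% of all rows were called lower. None of the 53 was called higher with these scalings, against 4.08% and 4.66% of all rows. The share of all calls that were higher on OPN went from 86.8% to 68.4% and 64.6% with these scalings. Without PT replicate 1 or OPN replicate 4 only Cdc6 was called, and without any other array 0 of the 53 were. Fewer of all rows were called lower too, 0.62% without PT replicate 1 and 0.339% without OPN replicate 4. Without 1 of the other arrays the share was 0.325% to 0.442%, against 0.77% with all 6. The difference of Cdc6 stayed between -0.38 and -0.33 in these fits, that of Ccne1 between -0.35 and -0.28 and that of Cenpu between -0.31 and -0.25.

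**Figure D1:**
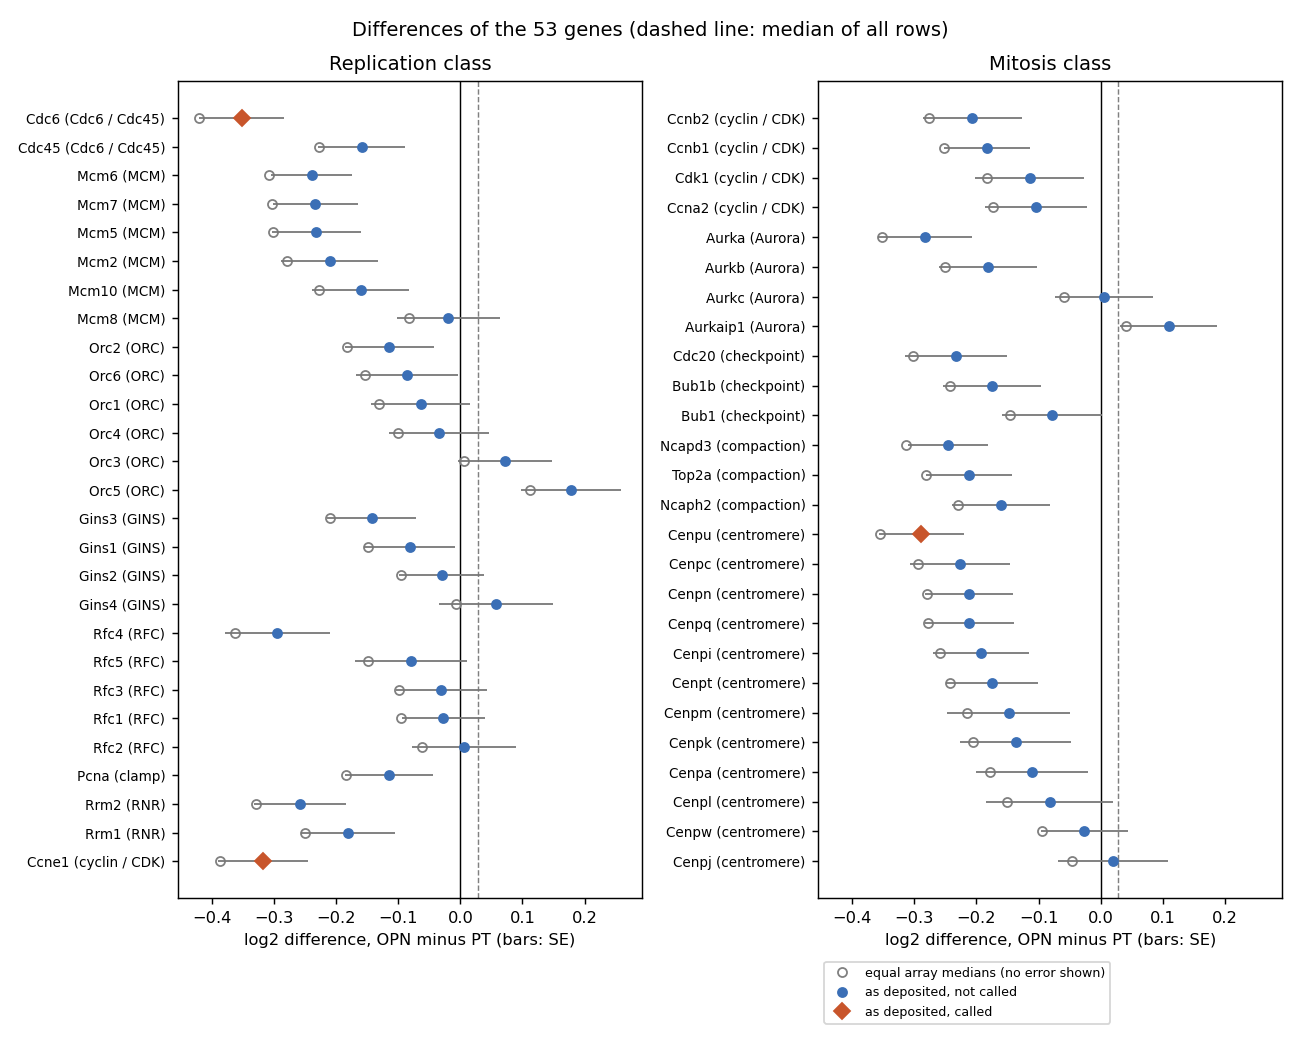
Log2 difference, OPN minus PT, of each of the 53 genes by class and role (x axis), with bars of 1 SE. Filled points are values as deposited, diamonds the 3 called genes, and open grey circles the same genes with equal array medians. Most points lie left of 0 and of the dashed line, the median of all rows (0.03), and Orc5 (0.18) lies farthest right.

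Cdc6, the loader of the MCM ring, differed most. Its signal (probe set 10738118) was 1329.6, 1415 and 1422 units on PT replicates 1, 2 and 4, and 1046, 1095 and 1113 on OPN replicates 2, 3 and 4. All OPN arrays were lower than all PT arrays. The log2 difference was -0.35 (SE 0.07), a 1.28-fold lower signal, with adjusted p = 0.0182 in limma. Leaving out PT replicate 2 or PT replicate 4 ended the call (adjusted p = 0.0647 and 0.0594 in limma), as did leaving out OPN replicate 2 or OPN replicate 3 (adjusted p = 0.0985 and 0.0757 in limma).

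Among subunits of ORC, which Cdc6 joins at origins, none passed the test (0 at an unadjusted p under 0.05 in limma). Orc5 had 285, 319.5 and 336 units on the PT arrays and 355, 372 and 343 on the OPN arrays. Here the OPN arrays were the higher ones, with a log2 difference of 0.18 (SE 0.08, adjusted p = 0.299 in limma). Orc3 (0.07) also lay above 0. Orc2 (-0.11), Orc6 (-0.09), Orc1 (-0.06) and Orc4 (-0.03) lay below it. Orc2 was the only one of these 4 whose OPN arrays were all below its PT arrays. The mean centred level of the 6 ORC genes was 0.004 ± 0.098 on PT and -0.004 ± 0.047 on OPN (SD, n = 3 each), so their groups overlapped.

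Of the 6 proteins of the MCM ring, 4 were measured and all 4 stood lower on OPN by nearly the same amount, although none passed the test (4 at an unadjusted p under 0.05 in limma). Mcm6 had 2233, 2291 and 2387 units on PT and 1921, 1945.5 and 1979 on OPN. Mcm7 had 2248, 2335 and 2459 on PT and 2014, 2027 and 1938 on OPN. The groups did not overlap for either gene, and the log2 differences were -0.24 (SE 0.07, adjusted p = 0.0811) and -0.23 (SE 0.07, adjusted p = 0.103 in limma). Mcm5 had 1376, 1509 and 1535 units on PT and 1218, 1272 and 1263 on OPN, a log2 difference of -0.23 (SE 0.07, adjusted p = 0.121 in limma). Mcm2 had 1657, 1795 and 1902 on PT and 1461, 1598 and 1558 on OPN, a log2 difference of -0.21 (SE 0.08, adjusted p = 0.199 in limma). In these genes too every OPN array was below every PT array. Mcm6 and Mcm7 were called lower with equal array medians (adjusted p = 0.0413 and 0.0416 in limma) and, with Mcm5 (adjusted p = 0.0377), after quantile normalisation. Mcm10, a helicase activator outside the ring, had a difference of -0.16 without overlap. Mcm8, which acts in recombination repair, had -0.02.

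Cdc45 and the GINS complex complete the helicase. Cdc45 had a difference of -0.16 (SE 0.07, adjusted p = 0.283 in limma), and its OPN arrays were all below its PT arrays. Gins3 (-0.14) showed the same separation, while Gins1 (-0.08), Gins2 (-0.03) and Gins4 (0.06) overlapped between coatings. Gins4 lay below 0 with equal array medians and after quantile normalisation.

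In the clamp loader that sets PCNA onto DNA, Rfc4 stood apart from the other subunits measured. It had 1002, 1045 and 1144 units on PT and 891, 913 and 790.3 on OPN. All OPN arrays were lower, and the log2 difference was -0.29 (SE 0.09, adjusted p = 0.0972 in limma). Rfc5 (-0.08), Rfc3 (-0.03), Rfc1 (-0.03) and Rfc2 (0.01, below 0 with either scaling) overlapped between coatings, and the difference between Rfc4 and these subunits was not tested. Pcna, the sliding clamp itself, had 2262, 2192 and 2451 units on PT and 2106, 2118 and 2139 on OPN. Its groups were separate but close, with a log2 difference of -0.12 (SE 0.07, adjusted p = 0.473 in limma).

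Ribonucleotide reductase makes the deoxynucleotides for replication. Its small subunit Rrm2 had 5042, 5519.5 and 5688 units on PT and 4424, 4679 and 4455 on OPN. The OPN arrays were all lower, by 0.26 on the log2 scale (SE 0.07, adjusted p = 0.0936 in limma), and a call was made only with some other settings, among them quantile normalisation (adjusted p = 0.0334). The large subunit Rrm1 had a difference of -0.18 (SE 0.08, adjusted p = 0.254 in limma), also without overlap. A second, dimmer row of Rrm1 showed 487 units on PT and 479 on OPN, so the rows of this gene disagree in size, and a second row of Rrm2 was 1.21-fold lower on OPN.

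Ccne1 encodes cyclin E1, which with Cdk2 starts S phase. It had 1516, 1581 and 1679 units on PT and 1266, 1331 and 1224 on OPN (probe set 10721176). Every OPN array was below every PT array, and Ccne1 fell by 0.32 on the log2 scale (SE 0.07, adjusted p = 0.0402 in limma). Leaving out any 1 array ended this call, with adjusted p between 0.0513 without PT replicate 1 and 0.149 without OPN replicate 2. With an offset of 1 in place of 16 the call was lost too (adjusted p = 0.0537 in limma).

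**Figure D2:**
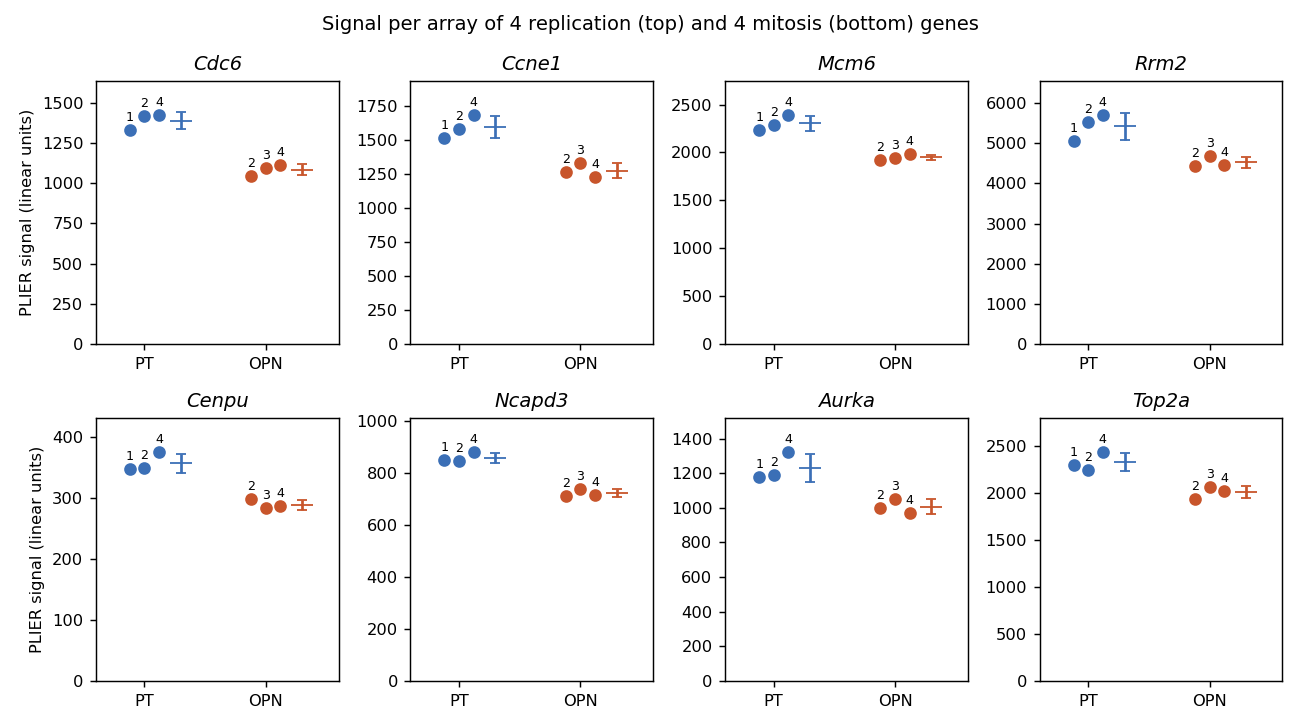
PLIER signal (y axis, linear units from 0) in each array for the 4 replication and 4 mitosis genes with the smallest p, with the replicate number beside each point and the mean ± SD beside each group (n = 3). In each panel the OPN arrays lie below the PT arrays, and in 8 of 8 panels PT replicate 4 is the highest array.

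On the mitotic side, the cyclins and their kinase gave smaller differences than Ccne1, with no test of that contrast. Ccnb1, cyclin B1, had 1391, 1412 and 1515 units on PT and 1254, 1307 and 1236 on OPN. Its groups were separate, at a log2 difference of -0.18 (SE 0.07, adjusted p = 0.208 in limma). Cdk1, the kinase it activates, had 580.4, 561 and 659.9 units on PT and 508, 582 and 569 on OPN. These values overlapped, at -0.11 (SE 0.09, adjusted p = 0.593 in limma). Ccnb2 (-0.21) was separate between coatings, and its second row was 1.16-fold lower on OPN. Ccna2 (-0.10), the cyclin of S phase and G2, overlapped.

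The set held 3 Aurora kinases, and none passed the test. Aurka, which acts at spindle poles, had 1179, 1188 and 1323 units on PT and 1001, 1051 and 969 on OPN. Aurkb, the kinase of the chromosomal passenger complex, had 839, 916 and 987 on PT and 779, 812 and 815 on OPN. Neither gene overlapped between coatings, and the log2 differences were -0.28 (SE 0.08, adjusted p = 0.0752) and -0.18 (SE 0.08, adjusted p = 0.276 in limma). Aurka was called lower with equal array medians (adjusted p = 0.0286 in limma). Aurkc (0.01), known mainly from germ cells, overlapped and lay below 0 with either scaling. Aurkaip1 (0.11), whose product interacts with Aurora A and is part of the mitochondrial ribosome, entered the set by its symbol alone.

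The checkpoint holds cells in mitosis until all chromosomes are attached. Cdc20, the activator of the anaphase-promoting complex on which the checkpoint acts, had a difference of -0.23 (SE 0.08, adjusted p = 0.175 in limma) without overlap. Bub1b (-0.18), the gene of the checkpoint protein BubR1, was separate between coatings too, and the kinase gene Bub1 (-0.08) overlapped.

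Genes of chromosome compaction lay lower on OPN throughout. Ncapd3, a subunit of condensin II, had 849, 845 and 879.6 units on PT and 712, 738 and 713 on OPN. Top2a, the topoisomerase that untangles sister chromatids, had 2299.8, 2244 and 2434 on PT and 1934, 2058 and 2025 on OPN. All OPN arrays were below all PT arrays for both, with log2 differences of -0.25 (SE 0.06, adjusted p = 0.0700) and -0.21 (SE 0.07, adjusted p = 0.140 in limma). Ncapd3 was called with equal array medians (adjusted p = 0.0271 in limma), and Ncaph2 (-0.16), also of condensin II, overlapped.

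Centromere genes were the largest family, with 12 measured, of which 11 lay below 0 and 1 was called. Cenpu, of the CENP-O group of kinetochore proteins, had 346, 349 and 375 units on PT and 298, 283 and 286 on OPN (probe set 10791661). Its OPN arrays were all lower, and it fell by 0.29 on the log2 scale (SE 0.07, adjusted p = 0.0461 in limma). The call was lost without any 1 array, at adjusted p between 0.0754 without PT replicate 1 and 0.178 without OPN replicate 3, and with an offset of 1 (adjusted p = 0.0523 in limma). Cenpc (-0.23), which links the centromere to the outer kinetochore, and Cenpn (-0.21), which reads the CENP-A nucleosome, were separate between coatings. Cenpq (-0.21), of the same group as Cenpu, Cenpi (-0.19) and Cenpt (-0.17) were separate as well. Cenpm (-0.15), Cenpk (-0.14), Cenpa (-0.11), the centromeric histone itself, Cenpl (-0.08) and Cenpw (-0.03) overlapped. Cenpj (0.02), a centriole gene in spite of its symbol, overlapped, and lay below 0 with equal array medians and after quantile normalisation.

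Set against each other, both classes lay below 0, mitosis slightly more so. The median difference was -0.11 over replication and -0.18 over mitosis, a gap of 0.06, and 2 of 27 and 1 of 26 genes were called lower. The same gap between class medians had an SD of 0.022 between arrays of a coating. The mean centred level of replication minus that of mitosis was -0.02, -0.0018 and -0.03 on PT replicates 1, 2 and 4 and 0.02, 0.02 and 0.0069 on OPN replicates 2, 3 and 4, so the coatings did not overlap. By these means the gap between coatings was 0.03, smaller than the gap of 0.06 between medians, and neither was tested. OPN arrays lay wholly below PT arrays in 14 genes of each class. Genes of replication split by brightness. The 13 replication genes with a mean signal of at least 601 units, the median of the set, had a median difference of -0.23, and the 14 dimmer ones -0.03. For mitosis the corresponding medians were -0.18 over 14 genes and -0.16 over 12. Over all rows the medians were -0.0027 at or above that signal and 0.03 between it and the dimmest gene of the set. Why the dim replication genes, which include all ORC and GINS subunits, lay closer to 0 was not tested.

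Array by array, the mean centred log2 value of the replication genes was -0.01, 0.05 and 0.13 on PT replicates 1, 2 and 4 and -0.06, -0.03 and -0.09 on OPN replicates 2, 3 and 4. For mitosis it was 0.006, 0.06 and 0.16 on PT and -0.08, -0.04 and -0.09 on OPN. Neither class overlapped between coatings, though PT replicate 1 and OPN replicate 3 were close. PT replicate 4 was the highest of the 6 arrays in 42 of the 53 genes (79.2%), against 17.8% of all rows. PT replicate 1 was the lowest PT array in 37 genes, a count without a share over all rows here. It was the highest PT array in 1 of the 53, against 43.5% of all rows. Without PT replicate 4 the median difference was -0.07 over replication and -0.12 over mitosis.

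Marker lists of other cells are given beside these levels. The 11 erythroid genes measured of 15 all lay below 0, with a median of -0.24 and with Ank1 (-0.38), Epb42 (-0.35) and Rhag (-0.30) called lower. Their mean centred level was 0.02, 0.14 and 0.20 on PT and between -0.15 and -0.07 on OPN, so PT replicate 4 was again highest and PT replicate 1 lowest of the PT arrays. This order of PT arrays was not particular to them. The osteoclast (-0.97, -0.91 and -0.85), megakaryocyte (-0.412, -0.409 and -0.361) and granulocyte precursor lists had it too, with a higher mean level on OPN. Macrophage genes had a median of -0.49, with 10 of 14 called lower and 3 above 0, and stood at 0.19, 0.23 and 0.21 on the PT arrays. Markers of granulocyte precursors had a median of 0.17 with 0 of 11 called in either direction (4 higher and 0 lower at an unadjusted p under 0.05). They stood at -0.31, -0.20 and 0.15 on the PT arrays. The osteoblast, stromal, endothelial and megakaryocyte lists rose in all 32 measured genes together, with medians of 2.46, 2.10, 0.71 and 0.74, and 6 of 8 osteoclast genes rose. In the B lineage list 0 of 6 and in the mast cell list 0 of 5 genes were called (1 and 0 higher at an unadjusted p under 0.05), 1 of 7 chondrocyte genes, Col2a1, rose, and 1 of 8 T and NK genes, Cd4, fell. The part of these cells in the lower replication and mitosis signals was not tested.

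**Figure D3:**
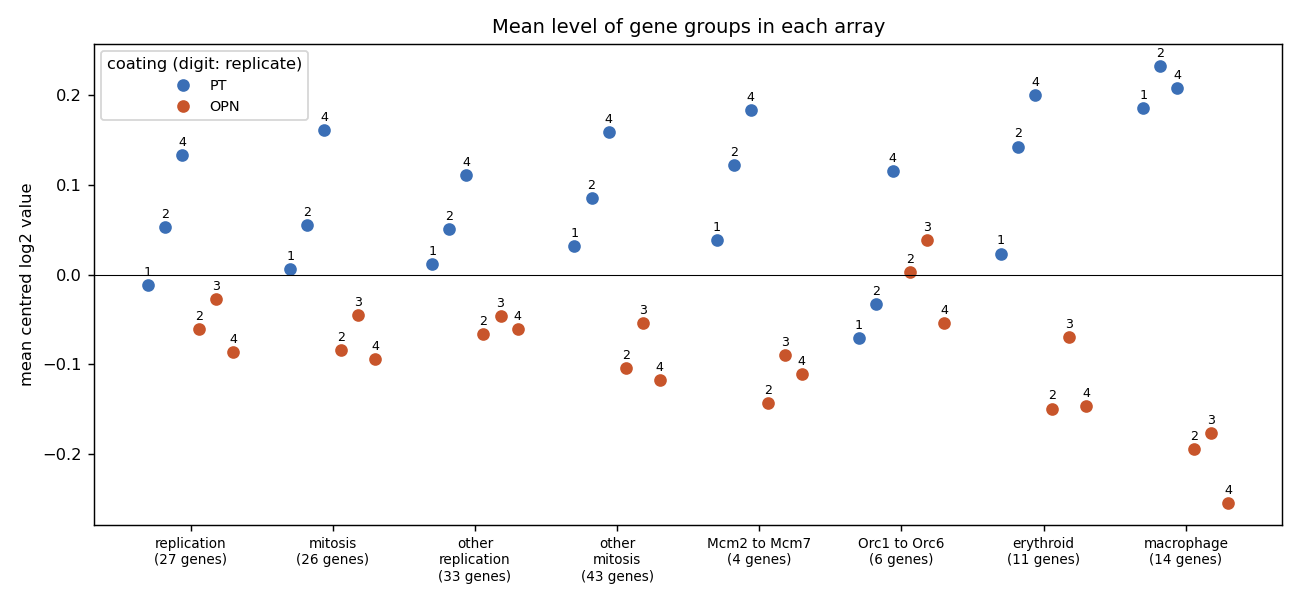
Mean of log2(signal + 16), centred per gene over the 6 arrays, for groups of genes (y axis, log2 units), with 1 point per array and its replicate number. Replication and mitosis genes lie above 0 on PT replicate 4 and below 0 on all OPN arrays, the ORC genes overlap between coatings, and the erythroid genes, like both classes, are highest on PT replicate 4 and lowest among PT arrays on PT replicate 1. Osteoclast, megakaryocyte and granulocyte precursor genes, not drawn here, had the same order among PT arrays.

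Genes of the same machines outside the set leaned the same way. They were measured on the same arrays and listed with earlier results of these data known, so they are not independent support. Of 33 other replication genes measured of 42, 31 lay below 0 (median -0.10). Uhrf1 (-0.31), which keeps DNA methylation through replication, and Clspn (-0.34), the adaptor of the replication checkpoint, fell, 0 rose in limma (0 higher at an unadjusted p under 0.05), and both calls were lost without any 1 array. Of 43 other mitosis genes measured of 59, 42 lay below 0 (median -0.20), 6 fell and 0 rose in limma (0 higher at an unadjusted p under 0.05). The 6 were the spindle gene Dlgap5 (-0.35), the chromokinesin Kif4a (-0.34), cyclin F (Ccnf, -0.35), the transcription factor gene Mybl2 (-0.32), securin (Pttg1, -0.30) and the cytokinesis gene Ect2 (-0.29). With PT replicate 1 left out 4 genes of the list were called lower, with PT replicate 2 left out 1, and with any other array left out 0. Zwint (0.10), of the kinetochore, was the gene above 0. Called lower were 6.06% of these replication and 14% of these mitosis genes. The share was 0.77% of all rows and 2.48% of rows with a mean signal of at least 601 units. Below 0 lay 93.9% and 97.7% of the 2 lists, against 41.5% of all rows and 50.7% of those bright rows. At an unadjusted p under 0.05, 12.8% of all rows were higher in limma.

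Regulators of the cycle had a median of -0.01 over 29 measured of 36, with 15 below 0 and 14 above. All calls were upward, as 6 rose while 0 fell in limma (9 were higher and 4 lower at an unadjusted p under 0.05). Most calls over all rows were upward too, with 5.05% of rows called higher and 0.77% lower. At an unadjusted p under 0.05 in limma, 12.8% of all rows were higher and 4.82% lower. Cdkn1a, which encodes the CDK inhibitor p21, had 315, 260.4 and 290.4 units on PT and 513, 509.6 and 454 on OPN. All OPN arrays were higher, and it rose by 0.74 on the log2 scale (SE 0.09, adjusted p = 0.00146 in limma). Cdkn1c (0.55), the gene of the related inhibitor p57, and Gadd45b (0.44), a stress-induced gene, rose with it. Myc (0.82), a growth-promoting transcription factor gene, Mdm2 (0.40), the p53 antagonist, and Ccnd1 (0.31), cyclin D1, rose too. The calls of Mdm2 and Ccnd1 were lost with equal array medians (adjusted p = 0.0750 and 0.0677 in limma). Rb1 (-0.32), the retinoblastoma gene that restrains E2F, and E2f8 (-0.27), a repressive E2F, were just outside the threshold (adjusted p = 0.0518 and 0.0552) and were called lower with equal array medians (adjusted p = 0.0149 and 0.0192 in limma). Markers of osteoblasts and stromal cells rose on the same arrays, and which cells carried the RNA of these regulators was not tested.

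**Figure D4:**
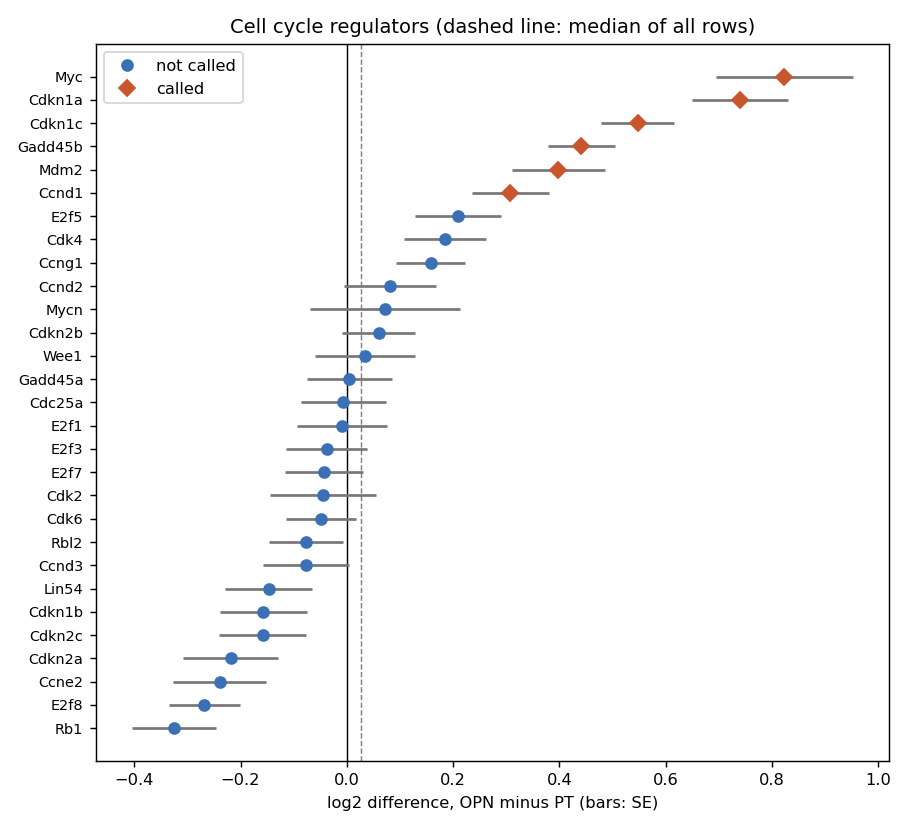
Log2 difference, OPN minus PT, of the 29 measured cell cycle regulators (x axis), with bars of 1 SE and diamonds for called genes. Myc (0.82) and Cdkn1a (0.74) lie farthest to the right, and Rb1 (-0.32) farthest to the left without a call.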

How the data were processed

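Each deposited value is a linear intensity of 1 probe set on 1 array, which the authors made with Affymetrix Expression Console and PLIER per the submitters' processing notes. Versions, background correction, array scaling and genome build: not given in the sources used here. Per the labels' protocols 300 ng of RNA was labelled with biotin.

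Rows were named through the platform annotation (15310 of 29215 with 1 symbol, 323 with several, 13582 with none), and 1 row per gene, that with the highest mean, was used. Entrez identifiers of all 53 genes matched the GRCr8 gene table, with 0 changed symbols. Log2(intensity + 16) was fitted by coating with lmFit and eBayes (limma 3.58.1, R 4.3.3) on all rows without a filter, and tested on simulated data. The members, lists and motifs were chosen with earlier results of these data known. By the naming rule every member may be named, and values in each array are given for called members, the 4 of smallest p per class and a short list (Mcm2 to Mcm7, Pcna, Rrm2, Cdk1, Ccnb1, Top2a, Mki67, Aurka and Aurkb, where measured). Of each other list the called genes are named, at most 5 by smallest p, or the 3 of smallest p where none was called. Outside this rule, Orc5, Rfc4, Ect2, Ccnd1, Rb1, E2f8 and Zwint were chosen after their values were seen, and most cell type lists are given by counts alone. Replication and mitosis medians have no test. Alternatives were the offset, scaling, a signal filter, each array left out, the replicate number as a block, other eBayes settings, the mean of a gene's rows and narrower classes.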

Additional observations from a re-analysis of the deposited data

How the results depend on the processing

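The medians of both classes stayed below 0 in all settings tried. They moved beyond the spread between arrays only with equal array medians, to -0.18 over replication and -0.24 over mitosis. Counts moved far more. Genes called lower for replication and for mitosis numbered 1 and 0 with an offset of 1, 5 and 3 with 64, 5 and 4 with equal medians, 7 and 6 after quantile normalisation, 2 and 3 among rows with a mean signal of at least 100, and 7 and 3 with a trended, robust eBayes. Of all rows 0.63% were called lower with an offset of 1, 1.31% with 64, 1.38% with the signal filter and 1.77% with the trended eBayes, against 0.77% as reported. Leaving out 1 array gave 0 to 1 and 0 to 0, where 0.325% to 0.62% of all rows were called lower, and a gap between classes of 0.053 to 0.085. Other replication genes numbered 4 with equal medians, 5 after quantile normalisation and 4 with the trended eBayes, and 0 to 0 without 1 array. Other mitosis genes numbered 10 with an offset of 64, then 13, 22 and 14 in those settings, and 0 to 4 without 1 array. Regulators called lower numbered 2 with an offset of 64, equal medians, quantile normalisation, the signal filter and the trended eBayes, and 0 to 1 without 1 array, while 4 to 5 were called higher. Over all rows, leaving out 1 array gave 1023 calls (without OPN replicate 3) to 1486 (without PT replicate 4).

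Deviations of same-numbered arrays from the means of their coatings had correlations of -0.08 for number 2 and 0.07 for number 4. With 3 arrays per coating these values cannot decide whether the numbers pair samples, and the labels do not say. With the replicate number as a block 666 rows were called, 0 replication and 0 mitosis genes, 0 of the other replication and other mitosis genes, and 1 regulator higher.

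Signs turned only for differences near 0. With equal medians and with quantile normalisation the median of all rows went to -0.036 and -0.030, Rfc2 to -0.062 and -0.069, Gins4 to -0.0078 and -0.0047, Aurkc to -0.059 and -0.055 and Cenpj to -0.046 and -0.052. Leaving out 1 array turned a sign for Rfc2 (range -0.037 to 0.062), Gins4 (range -0.024 to 0.13), Gins2 (range -0.057 to 0.0022), Cenpw (range -0.066 to 0.017), Cenpj (range -0.055 to 0.096), Rfc1 (range -0.048 to 0.0012), Mcm8 (range -0.080 to 0.024), Orc4 (range -0.080 to 0.032), Orc1 (range -0.11 to 0.0023) and Aurkc (range -0.052 to 0.062), and the replicate block for Rfc2 (-0.076) and Gins4 (-0.019). Which rows lie above background is not known.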
